A study of Rattus norvegicus with 241 samples.

Results

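Leukocytes of the mammary gland were compared between estradiol-implanted ACI rats that had earlier received a TGFβ receptor inhibitor and had no tumor, and estradiol-implanted ACI rats that had received vehicle and carried tumors. The members of this comparison were all bulk RNA-seq libraries of live CD45+ cells, the surface protein that marks leukocytes, from rats with an estradiol (E2) implant that were either treated with the inhibitor and tumor-free or treated with vehicle and tumor-bearing. They were 11 libraries from 8 rats, of 20 CD45+ libraries from 17 rats in the estradiol experiment and of 241 samples in the series. The series asked how a short block of TGFβ signaling around puberty changes the rat mammary gland and its later tumors, in the ACI strain, which forms mammary tumors under estrogen, and in the SD strain.

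All 8 rats were virgin ACI females. The inhibitor was LY2157299 (galunisertib), which blocks the kinase of TGFβ receptor 1, and is called TGFBRi here. It was given by oral gavage at 75 mg/kg, 2 doses a day for 21 days from 38 days of age, and control rats received vehicle on the same schedule. A silastic implant holding 37 mg of estradiol was placed in every one of the 8 rats at 60 days of age, and mammary glands labeled as normal were taken later. The study reports microscopic adenocarcinomas in visibly tumor-free glands of most vehicle rats given estradiol, and in none given TGFBRi. Whether the glands used here held such lesions was not stated. The labels give the day of collection as variable and after tumor development. The study's methods give a common end point, with earlier removal of sick animals. Neither gives the day of each rat. The 4 TGFBRi rats were tumor-free at collection and the 4 vehicle rats were tumor-bearing, so that drug and tumor status cannot be told apart in this comparison. TGFBRi rat 1 was represented by 4 libraries named as parts 1 to 4, with no statement of what a part was. Its value was the mean of the 4 in limma and wherever values are printed. For edgeR and DESeq2 the reads of the 4 parts were summed, so this rat had the most reads there. Part 1, the deepest part, weighed most in that sum. The other 7 rats had 1 library each. Rats were numbered within a group in the order of their records, so a number carries no pairing between groups. Values below are given in the order of rats 1 to 4.

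TGFβ is a secreted regulator that most leukocytes both make and respond to. Ligand binding to the type II receptor recruits and activates the type I receptor, the target of the drug, which phosphorylates SMAD2 and SMAD3 and so alters transcription. In lymphocytes the pathway is known to restrain activation and to favor regulatory T cells and tissue-resident cells, and in macrophages it is known to dampen inflammatory gene expression. The resting gland holds macrophages and dendritic cells close to the ducts, with T cells, B cells, mast cells and a few neutrophils around them.

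Values are normalized counts, the reads that fell on a gene divided by a library's size factor. The reads on genes came to between 19263581 and 40042138 in the 20 CD45+ libraries. Per library, with the parts of rat 1 averaged, TGFBRi rats had 27672274 to 35484136 reads on genes and vehicle rats 20048400 to 25063329, without overlap (exact permutation test, two-sided, p = 0.0286, the smallest p that 4 rats against 4 can give). Reads assigned to no gene made up 36.2% ± 3.7 (SD, n = 4) in TGFBRi rats and 40.3% ± 0.94 (SD, n = 4) in vehicle rats (exact permutation test, p = 0.0286), while 12275 ± 434 and 12370 ± 243 genes had at least 1 read (SD, n = 4 each, exact permutation p = 0.771). The part of these differences in the results below was not tested. The sort could be read in the genes: PTPRC, which encodes CD45, had 28451, 21686, 28700.4 and 28118 in TGFBRi rats and 22324, 23803, 28666 and 23656 in vehicle rats, and 18 of 18 general leukocyte genes were measured, with a median log2 difference of 0.14, which ran from 0.08 without TGFBRi rat 3 to 0.23 without TGFBRi rat 4. LAPTM5, a lysosomal protein of leukocytes, differed by 0.20 ± 0.17 (log2 difference, SE), and CD52, a surface glycoprotein of lymphocytes and monocytes, by 1.26 ± 0.55. Gene symbols are written in capitals below, as in the data.

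No gene passed an adjusted p of 0.05 in limma, which tested 13483 genes on log2(normalized count + 1) with the spread estimated over all 17 CD45+ rats of the estradiol experiment. The share called was 0%, and edgeR's quasi-likelihood test on the recovered reads also called 0%. At an unadjusted p under 0.05, limma held 845 genes, or 6.27% of those tested, and edgeR held 835, or 6.19%. Of the 845 genes, 526 were higher in TGFBRi rats, 3.9% of all genes, and 319 were lower, 2.37%. DESeq2 on the same reads called 8 genes, or 0.0593%, all of them higher in TGFBRi rats, and put 902 genes, or 6.69%, at an unadjusted p under 0.05. On simulated counts of this design DESeq2 made more false calls than limma or edgeR, and it also found more of the changes put in. Limma and edgeR missed most of the smaller changes put in and few of the larger ones. The median log2 difference over all genes was 0.005. In 320 genes, 2.37% of all, the 4 values of one group lay entirely outside the range of the other, with 197 genes higher (1.46%) and 123 lower (0.912%) in TGFBRi rats. TGFBRi rat 1 entered with the mean of its parts, so single parts could lie within the vehicle range in genes without overlap. Values given for single genes below are differences that missed the limma threshold unless stated otherwise.

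**Figure D1:**
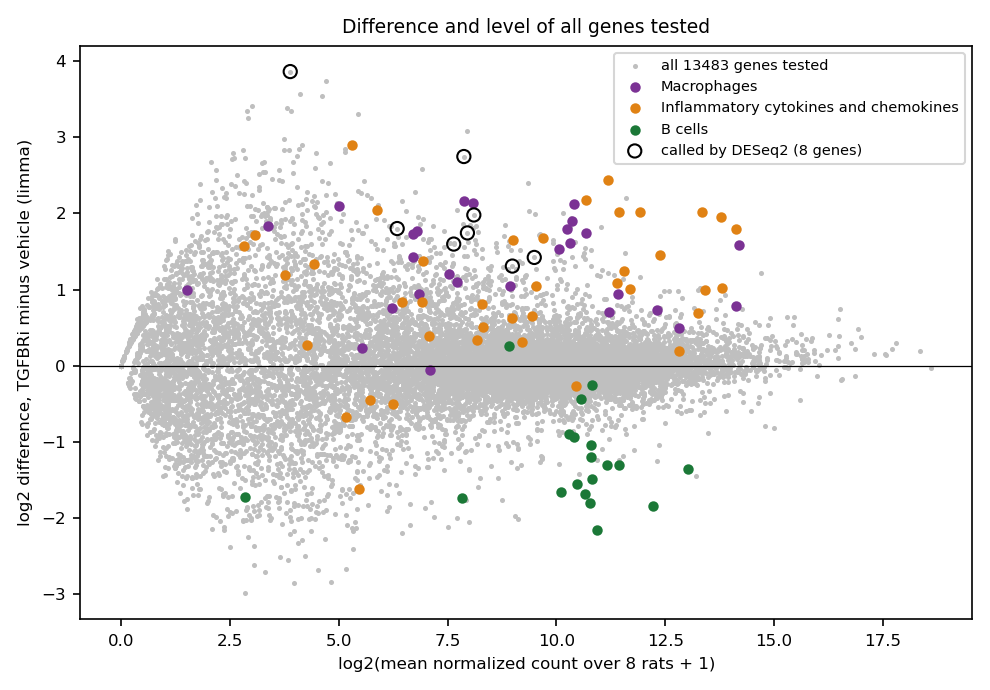
Log2 difference between TGFBRi tumor-free and vehicle tumor-bearing rats (vertical axis, log2 units, limma) against the mean level over the 8 rats (horizontal axis, log2 of the normalized count + 1), 1 point per gene. Most genes of the macrophage list (26 of 27) and of the inflammatory list (35 of 40) lie above 0 and most B cell genes (18 of 19) below it, and the 8 genes that DESeq2 called (circles) all lie above 0.

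The 8 genes called by DESeq2 included a vasoactive peptide, regulators of myeloid cells, a nucleic acid sensor and a protease. EDN1, which encodes the precursor of endothelin 1, had 378, 212, 690.1 and 475 in TGFBRi rats and 119.8, 170.5, 55.4 and 92.5 in vehicle rats. Every TGFBRi rat was above every vehicle rat, with a log2 difference of 1.98 ± 0.39 (SE), an adjusted p of 0.317 in limma and of 0.00292 in DESeq2. MITF, a transcription factor of melanocytes, mast cells and osteoclasts that is also made in macrophages, had 311, 219, 379 and 272 in TGFBRi rats and 101.2, 169, 76 and 62.4 in vehicle rats, and again the groups did not overlap (log2 difference 1.60 ± 0.34, limma adjusted p = 0.535, DESeq2 adjusted p = 0.018). ZEB2, a transcription factor that holds myeloid identity and binds SMADs, had 954, 766, 1675 and 802 in TGFBRi rats and 358, 598, 258 and 341 in vehicle rats. Its log2 difference was 1.42 ± 0.33 (limma adjusted p = 0.650, DESeq2 adjusted p = 0.0484), and TGFBRi rat 3 was the highest of the 8.

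TLR7, the endosomal receptor for single-stranded RNA, had 405, 289, 599 and 232 in TGFBRi rats and 110.0, 183, 93.9 and 66.8 in vehicle rats. The lowest TGFBRi rat was above the highest vehicle rat, with a log2 difference of 1.74 ± 0.41 (limma adjusted p = 0.650, DESeq2 adjusted p = 0.0484). MMP13, a collagenase, had 905, 858, 781 and 369.9 in TGFBRi rats and 351, 267, 339 and 186 in vehicle rats. TGFBRi rat 4 stood below the other 3 of its group and only a little above the highest vehicle rat, and the log2 difference was 1.31 ± 0.32 (limma adjusted p = 0.650, DESeq2 adjusted p = 0.0428).

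RTP3, a member of the receptor transporter family, had 459, 347, 336 and 392 in TGFBRi rats and 28.5, 231, 39.3 and 36.8 in vehicle rats. Of the vehicle rats, rat 2 stood far above the other 3 but still below every TGFBRi rat, and the log2 difference was 2.75 ± 0.51 (limma adjusted p = 0.197, DESeq2 adjusted p = 0.0484). IGSF3, an immunoglobulin superfamily membrane protein, had 95.7, 113, 118 and 176 in TGFBRi rats and 33.4, 38, 32.2 and 34.5 in vehicle rats, with a spread among vehicle rats of only 0.10 (SD, log2 units) and a log2 difference of 1.80 ± 0.42 (limma adjusted p = 0.650, DESeq2 adjusted p = 0.00695). EFS, an adaptor protein that binds SRC family kinases, was low throughout, with 18.9, 25.4, 32.9 and 27.3 in TGFBRi rats and 0, 4.91, 0.894 and 0 in vehicle rats. On the log2(value + 1) scale it differed by 3.87 ± 0.67 (limma adjusted p = 0.138, DESeq2 adjusted p = 0.0189), a size that rests on vehicle values at or near 0.

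The 4 libraries of TGFBRi rat 1 were far from equal for these 8 genes. EDN1 had 527, 633, 237 and 115 in parts 1 to 4, and MITF had 582, 406, 170.5 and 87.1, a 6.68-fold range that ended within the range of the vehicle rats. ZEB2 had 1623, 1234, 544 and 415, and TLR7 634, 546, 316 and 125. Parts 1 and 2 held the higher values of EDN1, MITF, ZEB2, TLR7, MMP13 and RTP3, and part 4 the lowest. EFS went the other way, with 1.95, 4.66, 23.4 and 45.7, and IGSF3 followed neither pattern, with 128, 30.8, 83.1 and 142. With part 1 alone for that rat DESeq2 called 17 genes, 7 of them among the 8, with part 2 alone 14 genes (6 of the 8), with part 3 alone 4 (3 of the 8) and with part 4 alone 3 (2 of the 8).

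Single rats also set the number of calls. DESeq2 called 251 genes without vehicle rat 2, 218 of them higher and 33 lower in TGFBRi rats and all 8 among them, and limma called 7. DESeq2 called 7, 21, 0 and 5 genes without TGFBRi rats 1, 2, 3 and 4, and 1, 2 and 0 genes without vehicle rats 1, 3 and 4. The log2 difference of EDN1 stayed between 1.69 and 2.29 when each rat was left out in turn, that of MITF between 1.40 and 1.87 and that of RTP3 between 2.43 and 3.42. Of the 12 DESeq2 fits with 1 part alone or 1 rat left out, EDN1 was called in 9, IGSF3 in 6, MITF, TLR7 and EFS in 5, ZEB2 and MMP13 in 4 and RTP3 in 3.

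**Figure D2:**
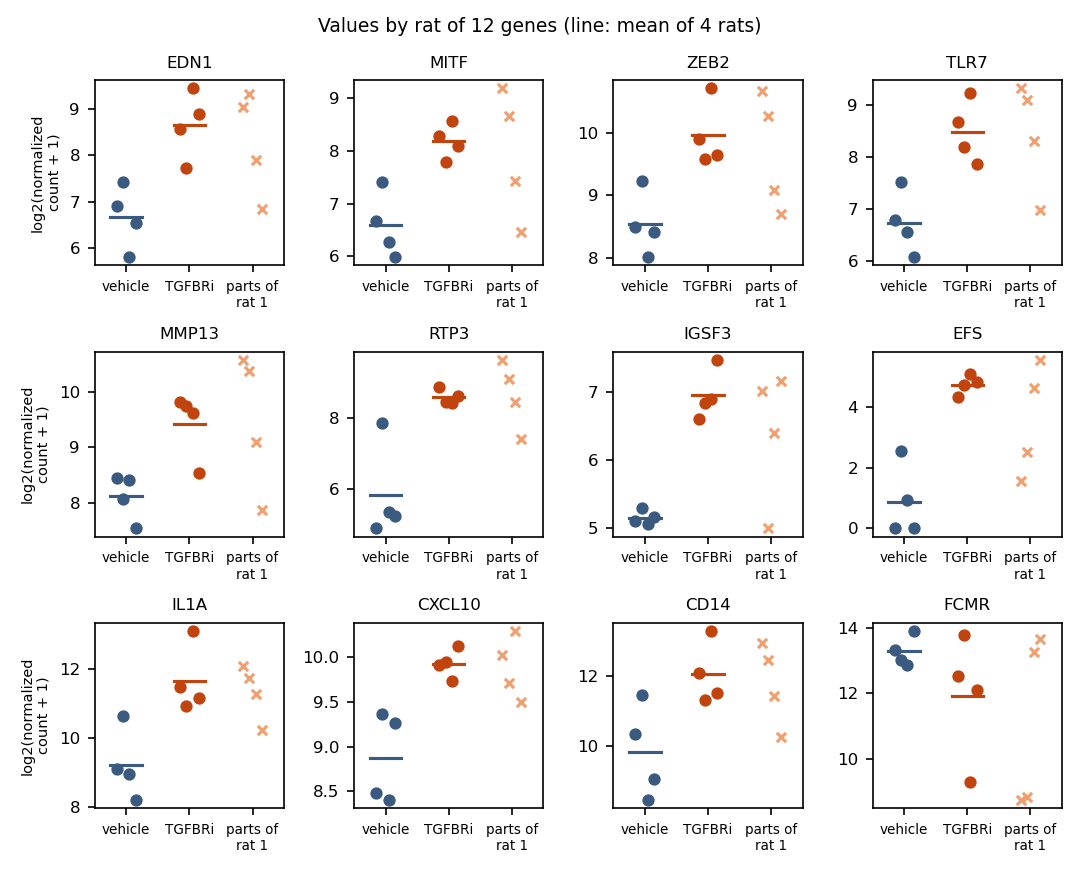
Values of 12 genes, 1 panel each, as log2(normalized count + 1) on the vertical axis, for the 4 vehicle tumor-bearing rats, the 4 TGFBRi tumor-free rats and, as crosses, the 4 parts that make up TGFBRi rat 1, with a line at the mean of each group of 4 rats. EDN1, MITF, ZEB2, TLR7, MMP13, RTP3, IGSF3, EFS, IL1A and CXCL10 show no overlap between the groups of rats, while CD14 and FCMR overlap, and the parts of the single rat span a wider range than the 8 rats for MITF, MMP13 and FCMR and a narrower one in the other panels.

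The remaining genes among the 10 most clearly higher ones with a mean of at least 50 were CXCL10, NAPRT and IL1A. NAPRT, an enzyme that makes NAD from nicotinic acid, had 106.1, 103.045, 154 and 122 in TGFBRi rats and 25.5, 60.1, 57.2 and 45.7 in vehicle rats (log2 difference 1.40 ± 0.36, limma adjusted p = 0.650). CXCL10, the chemokine that draws CXCR3-bearing T cells and NK cells, had 964, 986, 854 and 1113 in TGFBRi rats and 356, 659.8, 338 and 613 in vehicle rats. Its TGFBRi values lay close together, its parts (at 1045, 839, 1251 and 721) all lay above the highest vehicle rat, and the log2 difference was 1.05 ± 0.27 (limma adjusted p = 0.650, DESeq2 adjusted p = 0.210).

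The promoter of CXCL10 and that of its neighbor CXCL11, which binds the same receptor and was chosen after its values were seen, are shown because both genes belong to the list with the largest share of genes at an unadjusted p under 0.05. The sequences are the 250 bases before the RefSeq start of each gene in the GRCr8 assembly, which is not the build of the read counts. They lie at chr14:15988816-15989065 and chr14:15973478-15973727, both on the plus strand, and capitals mark matches, on either strand, to the κB consensus, bound by NF-κB, and to GAAANNGAAA, a core of the element bound by interferon-activated factors.
CXCL10: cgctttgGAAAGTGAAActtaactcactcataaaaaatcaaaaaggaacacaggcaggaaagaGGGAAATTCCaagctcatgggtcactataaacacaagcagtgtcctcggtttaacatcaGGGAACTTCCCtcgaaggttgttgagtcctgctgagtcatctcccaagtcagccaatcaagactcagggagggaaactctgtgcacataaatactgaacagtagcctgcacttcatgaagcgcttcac
CXCL11: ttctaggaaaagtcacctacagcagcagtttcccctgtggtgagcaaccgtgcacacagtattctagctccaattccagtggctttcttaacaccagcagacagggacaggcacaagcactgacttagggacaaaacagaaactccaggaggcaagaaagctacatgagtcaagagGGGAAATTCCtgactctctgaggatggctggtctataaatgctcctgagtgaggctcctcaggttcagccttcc
The CXCL10 window held GAAANNGAAA from -243 to -234, a κB match from -187 to -178 and a pair of overlapping κB matches, on opposite strands, from -128 to -118. The CXCL11 window held 1 κB match, from -74 to -65. Over all 33469 promoters of that length, 6.325% held a κB match and 3.406% held GAAANNGAAA. Of the list of inflammatory cytokines and chemokines, 30 of 40 genes matched a promoter and 10 of those 30 held a κB match, while 22 of 33 matched interferon-stimulated genes held GAAANNGAAA and 7 of 33 a κB match. A match describes the letters in the window and not a site in use.

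Inflammatory cytokines and chemokines were the list with the most genes at an unadjusted p under 0.05. Of 40 measured genes, 35 were higher and 5 lower in TGFBRi rats, with a median log2 difference of 1.04, beside 0.005 for all genes. 18 genes were higher at an unadjusted p under 0.05, none was lower, and 7 did not overlap between the groups; the corresponding shares over all genes were 3.9% higher, 2.37% lower and 1.46% higher without overlap, against which the counts of the other lists below are also read. None passed the adjusted threshold, and among the 96 genes named from the gene lists the limma adjusted p lay between 0.650 and 0.993 and the DESeq2 adjusted p was 0.210 or more. The median ran from 0.82 without vehicle rat 4 to 1.19 without vehicle rat 2 when each of the 8 rats was left out in turn.

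IL1A, an alarm cytokine that activates the interleukin 1 receptor, had 2853, 1925, 8672 and 2269 in TGFBRi rats and 547, 1577, 493 and 293 in vehicle rats (log2 difference 2.44 ± 0.63). Part 4 of TGFBRi rat 1 had 1207, within the vehicle range. TGFBRi rat 3 held the highest value and vehicle rat 2, at 1577, the only vehicle value near those of the TGFBRi rats. IL1B, the secreted counterpart made by activated monocytes and macrophages, had 16751, 21694, 50522 and 18001 in TGFBRi rats and 6927, 19447, 5513 and 3042 in vehicle rats, and here vehicle rat 2 lay within the TGFBRi range (log2 difference 1.80 ± 0.72). CCL4, a chemokine of activated macrophages and T cells, had 3364, 2560.3, 4992 and 3818 in TGFBRi rats and 2236, 1772, 1672 and 1201 in vehicle rats, without overlap (log2 difference 1.09 ± 0.34). PTGS2, the inducible cyclooxygenase, had 618, 441, 1604 and 457 in TGFBRi rats and 223, 439, 123 and 169 in vehicle rats, and its groups were separated by the gap between 439 and 441. CCL4 and PTGS2 were chosen after their values were seen. The 18 genes at an unadjusted p under 0.05 were IL1A, IL1B, TNF, CCL2, CCL3, CCL4, CCL7, CCL12, CCL22, CCL24, CXCL1, CXCL2, CXCL3, CXCL10, CXCL11, CXCL16, PTGS2 and NOS2. They are cytokines, enzymes, and chemokines that attract monocytes, neutrophils or T cells. The level of the list, the mean of log2(normalized count + 1) over its members, was 8.91, 8.89, 9.92 and 8.23 in TGFBRi rats 1 to 4 and 7.76, 8.97, 7.88 and 7.27 in vehicle rats 1 to 4, so that vehicle rat 2 lay above 3 of the 4 TGFBRi rats. Without vehicle rat 2, DESeq2 called 14 of the 40 genes, and without TGFBRi rat 4 it called CCL12.

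Macrophage genes had the highest median of the 35 lists. Of 27 measured markers, 26 were higher and 1 was lower in TGFBRi rats, with a median log2 difference of 1.42. That median ran from 0.86 without vehicle rat 3 to 1.80 without vehicle rat 2, and was 0.82 with part 4 alone. At an unadjusted p under 0.05, 9 were higher. None of the 27 was separated between the groups. ADGRE1, which encodes the F4/80 antigen, had 411, 156, 641 and 257 in TGFBRi rats and 171, 158, 10.7 and 82.4 in vehicle rats (log2 difference 2.16 ± 0.69). TREM2, a lipid receptor of tissue macrophages, had 87.9, 171, 289 and 107.5 in TGFBRi rats and 55, 114, 10.7 and 45.7 in vehicle rats (log2 difference 1.77 ± 0.59). In both genes vehicle rat 3 was the lowest of the 8, at 10.7, and vehicle rat 2 lay at or above the lowest TGFBRi rat. LYZ2, a lysozyme of macrophages and monocytes and the most abundant of the list, had 22539.9, 19053, 48319 and 15556 in TGFBRi rats and 13153, 22652, 2146 and 6180.4 in vehicle rats (log2 difference 1.59 ± 0.77), with vehicle rat 2 above TGFBRi rats 1, 2 and 4. CD163, a scavenger receptor of resident macrophages, had 224, 1.58, 89.8 and 122 in TGFBRi rats and 11.8, 66.2, 13.4 and 63.5 in vehicle rats, a spread that covered the other group in both directions (log2 difference 0.75 ± 1.45, adjusted p = 0.951).

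The level of the macrophage list was 9.25, 8.27, 9.70 and 8.04 in TGFBRi rats 1 to 4 and 8.09, 8.60, 6.15 and 7.18 in vehicle rats 1 to 4. In the 4 parts of TGFBRi rat 1 it was 9.83, 9.80, 8.54 and 7.38, a range within a single rat that reached from above every rat of the comparison to within the vehicle range. Without vehicle rat 2, DESeq2 called 6 of these genes (CD68, ADGRE1, CSF1R, TREM2, MSR1 and CTSB). In sorted bulk cells a higher share of a cell type and more RNA per cell cannot be told apart, here and in the lists that follow.

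Monocyte and dendritic cell genes leaned the same way with more exceptions. The monocyte list had a median of 0.94 over 12 genes, 4 of them higher at an unadjusted p under 0.05 (3.9% of all genes) and 2 without overlap (1.46% of all genes). That median ran from 0.56 without TGFBRi rat 3 to 1.36 without vehicle rat 2. CD14, the co-receptor for lipopolysaccharide, had 4369, 2548, 9874 and 2926 in TGFBRi rats and 1308, 2841, 356 and 540.3 in vehicle rats (log2 difference 2.20 ± 0.69), where vehicle rat 2 exceeded the lowest TGFBRi rat. SPN, the sialophorin CD43, which is also made in T cells, had 3434, 3276, 6233 and 3379 in TGFBRi rats and 2705, 3018, 2337 and 1678 in vehicle rats (log2 difference 0.72 ± 0.24), without overlap. Parts 3 and 4 of TGFBRi rat 1, at 2473 and 2415, lay within the vehicle range of SPN. Among 20 dendritic cell genes the median was 0.46, which ran from 0.29 without vehicle rat 3 to 0.81 without vehicle rat 2. Of them 5 were higher and 2 lower at an unadjusted p under 0.05. XCR1, the chemokine receptor of cross-presenting dendritic cells, had 90.8, 65, 110.0 and 66.9 in TGFBRi rats and 39.3, 38, 34 and 18.9 in vehicle rats, without overlap (log2 difference 1.35 ± 0.46). Part 4 of TGFBRi rat 1, at 37.1, lay within the vehicle range of XCR1. CLEC10A, a lectin of conventional dendritic cells and macrophages, had 399.8, 468, 3087 and 338 in TGFBRi rats and 128, 674, 101.9 and 79.1 in vehicle rats, so that TGFBRi rat 3 stood alone at the top. CD83, a marker of mature dendritic cells and activated B cells, was the most abundant and leaned lower, at 39044, 79632, 29774 and 25729 against 54035, 45307, 39627 and 84933 (log2 difference -0.45 ± 0.38).

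B cell genes had the lowest median of all lists. Of 19 measured genes, 18 were lower and 1 was higher in TGFBRi rats, with a median log2 difference of -1.36, and 7 were lower at an unadjusted p under 0.05, beside 2.37% of all genes. No gene of the list was separated between the groups. BLNK, the linker of B cell receptor signaling, had 827, 2043, 484 and 625 in TGFBRi rats and 1596, 1322, 1264 and 2618 in vehicle rats (log2 difference -0.94 ± 0.37). CD72, a B cell co-receptor, had 1328, 2680.0, 584 and 950.4 in TGFBRi rats and 3222, 1614, 2997 and 4842 in vehicle rats (log2 difference -1.31 ± 0.54). FCMR, the receptor for the Fc part of IgM and the most abundant of the list, had 5945, 13991, 622 and 4405 in TGFBRi rats and 10294, 8318, 7521 and 15204 in vehicle rats (log2 difference -1.36 ± 0.66), where TGFBRi rat 2 was close to the highest vehicle rat and TGFBRi rat 3 far below the others. The log2 difference of FCMR was smaller in edgeR (-0.74) and DESeq2 (-0.76).

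The level of the B cell list was 9.62, 10.996, 6.95 and 9.16 in TGFBRi rats 1 to 4 against 10.4, 10.1, 10.3 and 11.1 in vehicle rats 1 to 4, which lay close together. With each rat left out, the median log2 difference ran from -2.07 without TGFBRi rat 2 to -0.57 without TGFBRi rat 3, and it was -2.31 with part 1 alone for TGFBRi rat 1. DESeq2 called FCRLA and BLNK of this list in the fit without TGFBRi rat 2. It called no B cell gene in the other fits with 1 part alone or 1 rat left out, among them the fit without vehicle rat 2 that called 251 genes. Within TGFBRi rat 1 the level was 5.34, 5.70, 10.4 and 10.6 in parts 1 to 4. FCMR had 425, 449, 9864 and 13041 in those parts, and CCR7, the lymph node homing receptor of naive and central memory lymphocytes and mature dendritic cells, 4732, 5728, 33820.4 and 48251. Libraries of this rat thus differed more in B cell genes than the vehicle rats did.

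**Figure D3:**
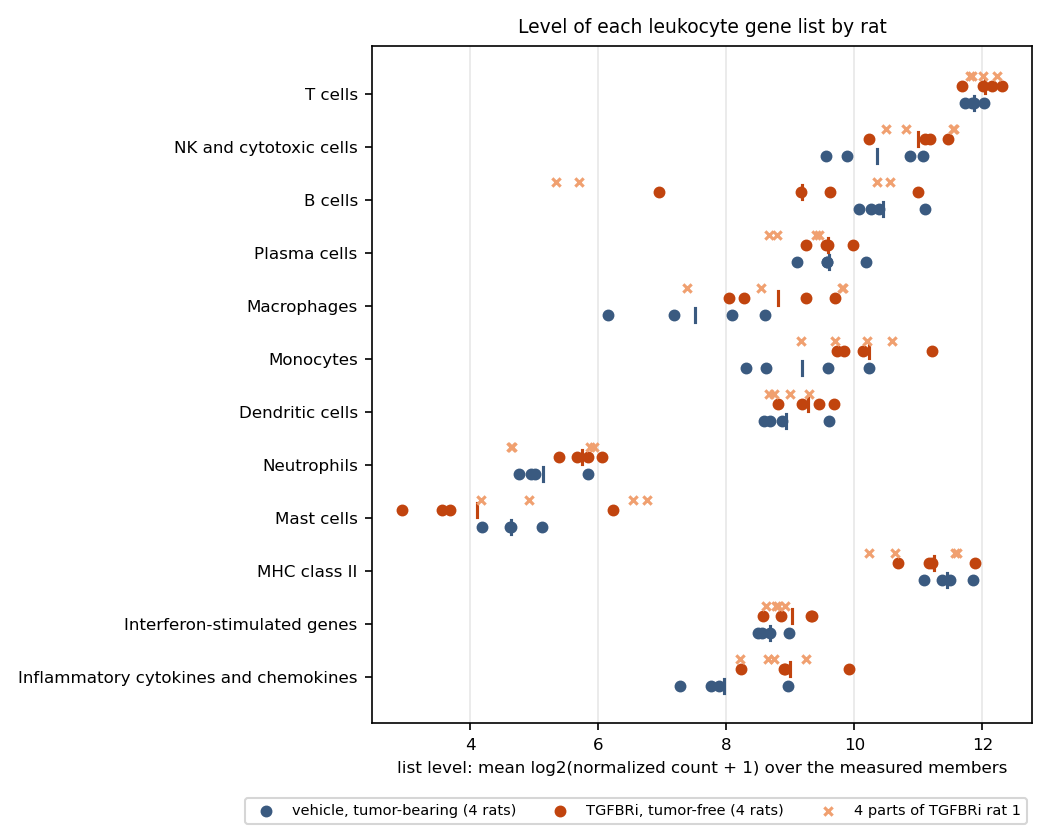
Level of 12 gene lists in each rat, as the mean of log2(normalized count + 1) over the measured members (horizontal axis), with vehicle tumor-bearing rats in blue, TGFBRi tumor-free rats in red, group means as vertical bars and the 4 parts of TGFBRi rat 1 as crosses. The B cell list spans 6.95 to 10.996 among TGFBRi rats and 5.34 to 10.6 among the parts of a single rat, against 10.1 to 11.1 among vehicle rats, while the T cell list stays between 11.7 and 12.3 in all 8 rats.

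Plasma cell genes did not share the pattern of B cells: the median over 16 genes was 0.06, which ran from -0.06 without TGFBRi rat 2 to 0.32 without vehicle rat 2, and the sign of that median changed with 3 of the 20 alternative settings. IRF4, a transcription factor of plasma cells and activated lymphocytes, was the gene with the smallest p, at 1091, 1424, 880.2 and 1032 against 1758, 1150.3, 1846 and 2666 in rats 1 to 4 of each group (log2 difference -0.70 ± 0.28). EDEM1, which directs misfolded proteins to degradation and was the most abundant of the list, had a log2 difference of 0.34 ± 0.23. SDC1, the plasma cell marker CD138, which epithelium also makes, had 1173, 1489, 3836 and 855 in TGFBRi rats and 955, 1923, 622 and 536 in vehicle rats, with TGFBRi rat 3 above all others. MHC class II genes, which B cells, dendritic cells and macrophages share, had a median of -0.16 over 12 genes, which ran from -0.33 without TGFBRi rat 2 to 0.09 without TGFBRi rat 4. Of them 1 was lower at an unadjusted p under 0.05. That gene was RT1-DOA, which modulates peptide loading in B cells, with 1307, 2221, 650.4 and 901 in TGFBRi rats and 2507, 1454, 1359.7 and 3447 in vehicle rats (log2 difference -0.83 ± 0.36). CD74, the invariant chain and the most abundant of the list, ranged over 332182, 575425, 480330.0 and 229600.0 against 362440.0, 442696, 288541 and 501265, a log2 difference of -0.03 ± 0.26 whose sign changed with the tool. MHC class I genes had a median of 0.21, which ran from 0.08 without TGFBRi rat 3 to 0.32 without vehicle rat 2, and none had an unadjusted p under 0.05. ERAP1, which trims peptides for loading, had a log2 difference of 0.39 ± 0.19, and TAPBP, the loading chaperone tapasin, of 0.34 ± 0.20. B2M, their shared light chain, had 123300.0, 107814, 166225 and 115007 in TGFBRi rats and 114258, 132885, 99063 and 93566 in vehicle rats.

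The level of the T cell list differed little between rats. Its genes varied about as much as all genes with a mean of at least 50. The median SD on the log2 scale was 0.347 against 0.313 among TGFBRi rats and 0.241 against 0.297 among vehicle rats. The median log2 difference over 22 genes was 0.19 and 21 leaned higher. The median ran from 0.07 without TGFBRi rat 3 to 0.28 without TGFBRi rat 2. No gene of the list had an unadjusted p under 0.05. IL7R, the interleukin 7 receptor, had a log2 difference of 0.35 ± 0.18. CD8A, the co-receptor of cytotoxic T cells, had 6211, 4190.0, 8267 and 6901 in TGFBRi rats and 3877, 6159, 4490.4 and 2079 in vehicle rats (log2 difference 0.68 ± 0.35), and LCK, the kinase of T cell receptor signaling, 13430.4, 10476, 20449 and 13946 in TGFBRi rats and 11135, 15014, 12061 and 10810.0 in vehicle rats (log2 difference 0.22 ± 0.22). The level of the list differed by less than 1 log2 unit over the 8 rats, with 12.02, 11.7, 12.3 and 12.2 in TGFBRi rats and 11.7, 12.03, 11.9 and 11.8 in vehicle rats.

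Among NK and cytotoxic genes all 21 measured members leaned higher, with a median of 0.61. That median ran from 0.27 without vehicle rat 4 to 0.86 without TGFBRi rat 2. Only 2 genes had an unadjusted p under 0.05. GZMK, a granzyme of memory CD8 T cells, was separated between the groups, at 1662, 1145, 1431 and 1248 against 791, 955, 769 and 306 (log2 difference 1.06 ± 0.36). FCGR3A, the Fc receptor CD16 of NK cells and monocytes, had 199, 307, 864 and 157 in TGFBRi rats and 183, 189, 58.1 and 44.6 in vehicle rats, and CCL5, a chemokine of cytotoxic lymphocytes, 20668, 10597, 17236 and 26680.2 in TGFBRi rats and 13066, 16451, 5864 and 4693 in vehicle rats. Vehicle rats 3 and 4 had the lowest CCL5 values, and vehicle rat 2 lay above TGFBRi rat 2. The list of T helper 17 and innate lymphoid genes had a median of 0.29 over 14 genes, which ran from 0.15 without TGFBRi rat 1 to 0.57 without TGFBRi rat 2. IL17A, IL17F and IL1RL1 were higher at an unadjusted p under 0.05. GATA3, a transcription factor of T cells and type 2 innate lymphoid cells and the most abundant of the list, had a log2 difference of 0.33 ± 0.34. IL17F, a cytokine that acts on epithelium, had 807, 526, 414 and 218 in TGFBRi rats and 259, 166, 265 and 95.8 in vehicle rats (log2 difference 1.28 ± 0.45), where TGFBRi rat 4 lay below 2 vehicle rats. Its parts, at 506, 252, 1121 and 1349, were higher in parts 3 and 4 than in parts 1 and 2.

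Regulatory T cell and checkpoint genes split evenly, with 9 higher and 9 lower, and a median of 0.09, which ran from -0.02 without vehicle rat 1 to 0.25 without vehicle rat 2. HAVCR2, the checkpoint TIM-3, which macrophages and dendritic cells also make, had 1282, 1049, 2431 and 931 in TGFBRi rats and 882, 1499, 251 and 421 in vehicle rats. BTLA, an inhibitory receptor of B and T cells, had 185, 309.9, 55.4 and 57.2 in TGFBRi rats and 248, 190.1, 158 and 498 in vehicle rats. TNFRSF9, the costimulatory receptor 4-1BB, had 10576, 6159.7, 11398 and 7149 in TGFBRi rats and 8364, 10176, 4076 and 4327 in vehicle rats. The groups overlapped in all 3 genes. In the tissue residency list, a state in which TGFβ is known to induce CD103, the median was 0.39 over 19 genes, which ran from 0.20 without vehicle rat 3 to 0.61 without TGFBRi rat 2. At an unadjusted p under 0.05 there was 1 gene in each direction, KLRG1 higher and CCR7 lower. Both mark effector or circulating cells and not resident ones, so the median of this list does not measure residency. KLRG1, a receptor of effector T cells, had 138, 38, 89.8 and 67.8 against 41.2, 45.4, 26.8 and 25.6. CCR7 had 23133, 31453, 10117 and 21091 against 37186, 22703, 34512 and 48473. RGS1, a signaling brake of tissue lymphocytes and the most abundant of the list, had 128934, 54499, 119023 and 138365 in TGFBRi rats and 99939, 96027, 46011 and 47881 in vehicle rats, with TGFBRi rat 2 low.

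The granulocyte and mast cell lists held 1 gene at an unadjusted p under 0.05. Neutrophil genes had a median of 0.72 over 17 genes, 13 of them higher, and the median ran from 0.42 without TGFBRi rat 3 to 0.95 without vehicle rat 2 and was 0.37 with a pseudocount of 10. S100A9, an abundant calcium-binding protein of neutrophils and monocytes, had 1336, 3369.6, 3574 and 1604 in TGFBRi rats and 813, 2092, 939.6 and 432 in vehicle rats. Eosinophil and basophil genes had a median of 0.29 over 9, which ran from 0.10 without TGFBRi rat 3 to 0.46 without vehicle rat 2. CSF2RB, the shared receptor chain for interleukins 3 and 5 and GM-CSF, had 2245, 2758, 3951 and 2221 against 1759.9, 3266, 886 and 925. CD200R1, an inhibitory receptor of myeloid cells, had a log2 difference of 0.29 ± 0.28. Mast cell genes had a median of -0.19 in limma, which ran from -0.79 without TGFBRi rat 1 to -0.02 without TGFBRi rat 4 and was -0.94 with part 4 alone. The median was 0.40 with edgeR, and 9 of 14 were at 0 in at least 1 rat. MCPT8L2, a granule protease, had a log2 difference of 0.73 ± 0.63. CPA3, the mast cell carboxypeptidase, had 465, 0, 43.4 and 0 in TGFBRi rats and 8.84, 113, 79.6 and 74.6 in vehicle rats. Its value in TGFBRi rat 1 came from parts 1 and 2, with 800.4, 987, 45.8 and 26.8 in the 4 parts, and the sign of its difference changed between limma (-2.09) and DESeq2 (0.98).

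Interferon-stimulated genes leaned higher, with 33 of 39 above 0, and a median of 0.28 (0.13 without TGFBRi rat 2 to 0.38 without vehicle rat 2). Of these genes 5 were higher at an unadjusted p under 0.05 (IFIT1, OASL, CXCL10, CXCL11 and GBP5), beside 3.9% of all genes, and 6 were higher without overlap, beside 1.46% of all genes. OASL, an antiviral relative of the oligoadenylate synthetases, had 2778, 2724, 3592 and 2174 in TGFBRi rats and 1497, 1983, 1042 and 1671 in vehicle rats (log2 difference 0.88 ± 0.23, limma adjusted p = 0.659). LGALS3BP, a secreted galectin-binding protein and the most abundant of the list, had 9403, 6939, 11968 and 8669.7 in TGFBRi rats and 4735, 10732, 5792 and 1985 in vehicle rats, with vehicle rat 2 above 3 TGFBRi rats. Chemokine receptors had a median of 0.22, which ran from 0.01 without vehicle rat 3 to 0.24 without TGFBRi rat 4. CXCR4, the receptor of CXCL12, was lower in every TGFBRi rat, at 28514, 29129.9, 22140.4 and 27508 against 34328, 29865, 31370.2 and 43013 (log2 difference -0.36 ± 0.19, limma adjusted p = 0.807).

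The pathway that the drug targets showed a median difference near that of all genes. Of 31 measured genes for TGFβ ligands, receptors, SMADs and activators, 11 were higher and 20 lower in TGFBRi rats, with a median of -0.08. That median ran from -0.14 without vehicle rat 3 to -0.02 without vehicle rat 2. Of these genes 2 were higher and 1 lower at an unadjusted p under 0.05. NRROS, which anchors latent TGFβ on macrophages, had 1660.1, 1795, 2679 and 1971 in TGFBRi rats and 1106, 1527, 1052 and 1545 in vehicle rats, without overlap (log2 difference 0.63 ± 0.22). Parts 3 and 4 of TGFBRi rat 1, at 1469 and 1543, lay within the vehicle range of NRROS. ENG, the co-receptor endoglin, had 324, 544, 879 and 450.1 in TGFBRi rats and 200.3, 541, 167 and 148 in vehicle rats, where vehicle rat 2 lay above TGFBRi rats 1 and 4. SMAD7, the inhibitory SMAD that the pathway itself induces and the most abundant of the list, had 10899.5, 3378, 5769.7 and 15500.2 in TGFBRi rats and 17528, 13633, 5809.9 and 12869.8 in vehicle rats, with wide overlap (log2 difference -0.61 ± 0.42). The last dose came before the implant, and the glands were taken after tumors had grown in vehicle rats, so these levels were measured long after dosing.

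Known target genes of TGFβ had a median of 0.25 over 29 genes, which ran from -0.01 without vehicle rat 3 to 0.42 without vehicle rat 2. Of them 2 were higher at an unadjusted p under 0.05. FN1, which encodes fibronectin and is made by macrophages and fibroblasts, had 2036, 2785, 1694 and 1205 in TGFBRi rats and 1081, 1169, 346 and 706 in vehicle rats (log2 difference 1.31 ± 0.41), without overlap. Parts 3 and 4 of TGFBRi rat 1, at 889 and 801, lay within the vehicle range of FN1. TGFBI, an extracellular matrix protein made by macrophages, had 1078, 1283, 1963 and 1058 in TGFBRi rats and 432, 1923, 264 and 219.5 in vehicle rats, with vehicle rat 2 above 3 TGFBRi rats. Its log2 difference was 1.47 ± 0.62 in limma and 0.93 in both edgeR (unadjusted p = 0.141) and DESeq2 (unadjusted p = 0.170). JUNB, the most abundant of the list, had 225574, 173660.0, 192916 and 319028 in TGFBRi rats and 242933, 251763, 114047 and 186561 in vehicle rats (log2 difference 0.22 ± 0.31).

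The 10 genes that were most clearly lower in TGFBRi rats, with a mean of at least 50 and no overlap, belonged to none of the 35 lists. TJP1, the tight junction scaffold ZO-1, had 99.7, 99.9, 63.6 and 112 in TGFBRi rats and 264, 172, 165 and 218 in vehicle rats (log2 difference -1.12 ± 0.33, limma adjusted p = 0.783). ATG14, which starts autophagosome formation, had 746, 545, 733 and 617 in TGFBRi rats and 1246, 752, 1051 and 986 in vehicle rats (log2 difference -0.60 ± 0.20). MAPKAPK5, a stress-activated kinase, had 2471, 1906, 1737 and 2406 in TGFBRi rats and 3026, 2734, 2695 and 2752 in vehicle rats, the smallest difference of the 10 at -0.41 ± 0.14. FASTKD1, a mitochondrial RNA-binding protein, had 388, 362, 258 and 366 in TGFBRi rats and 489, 509, 559.6 and 564 in vehicle rats (log2 difference -0.64 ± 0.22), and DHX35, an RNA helicase, 202, 183, 114 and 172 in TGFBRi rats and 246, 205, 310.2 and 344 in vehicle rats (log2 difference -0.72 ± 0.25). TRDMT1, an RNA methyltransferase, had a log2 difference of -1.21, and the microRNA gene MIR6334 of -1.30. The others, again as log2 differences, were RGD1302996 (-0.52), RGD1359108 (-0.70) and LOC257642 (-2.12). The limma adjusted p of the 10 was between 0.756 and 0.793. Single parts of TGFBRi rat 1 lay within the vehicle range in MIR6334, TRDMT1, RGD1359108, ATG14, LOC257642, DHX35 and MAPKAPK5. LOC257642 had 258 in part 1 and 324 in part 3, and MAPKAPK5 had 2710 in part 1 and 2738 in part 2. No part lay within that range in TJP1, RGD1302996 or FASTKD1.

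Genes that answer to tissue handling, stress and cell division were compared as well. Immediate early genes had a median of 0.24 over 28, which ran from 0.04 without vehicle rat 3 to 0.37 without TGFBRi rat 2. IER3, DUSP1 and NFKBIZ were higher at an unadjusted p under 0.05. NFKBIZ, a nuclear inhibitor of κB family member, had 14267, 16742, 18424 and 19471 in TGFBRi rats and 12710.0, 12699, 10768 and 12829 in vehicle rats, without overlap (log2 difference 0.49 ± 0.16). Part 2 of TGFBRi rat 1, at 12206, lay within the vehicle range of NFKBIZ. Heat shock chaperones had a median of -0.08, which ran from -0.22 without vehicle rat 3 to 0.06 without vehicle rat 4, with none at an unadjusted p under 0.05. HSPB1 stood at 4859 in vehicle rat 4 against 244 to 1035 in the other 7 rats. Glucocorticoid-responsive genes had a median of 0.30, which ran from 0.16 without TGFBRi rat 4 to 0.47 without TGFBRi rat 2. CEBPD, a transcription factor of acute inflammation in the same list, had 391, 412, 800.1 and 389 in TGFBRi rats and 140.4, 486, 155 and 122 in vehicle rats. The median of the immediate early list had the same sign as that of the inflammatory list, and its part in those results was not tested.

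S phase genes had a median of -0.21 over 35, which ran from -0.33 without TGFBRi rat 2 to -0.11 without vehicle rat 4. G2/M genes had a median of -0.13 over 36, which ran from -0.29 without vehicle rat 2 to 0.02 without TGFBRi rat 1 and was -0.38 with part 1 alone. In each of the lists 2 genes were lower at an unadjusted p under 0.05, beside 2.37% of all genes. They were POLD3, MCM4, SMC4 and CDC25C. MCM4, a helicase subunit of replication, had a log2 difference of -0.36 ± 0.16, and CDC25C, a phosphatase of mitotic entry, of -0.71 ± 0.33. POLD3, a DNA polymerase subunit, had 588, 765, 419.9 and 465 in TGFBRi rats and 650.1, 614, 990.5 and 882 in vehicle rats (log2 difference -0.50 ± 0.19), and SMC4, a condensin subunit, 2535, 2284, 1596 and 2428 in TGFBRi rats and 2848, 2304, 3386 and 3399.9 in vehicle rats (log2 difference -0.44 ± 0.18). TGFBRi rat 2 lay within the vehicle range of POLD3, and vehicle rat 2 lay among the TGFBRi rats in SMC4. Cytosolic ribosomal protein genes (-0.06 over 45) and nuclear-encoded respiratory chain genes (0.04 over 38) had medians near 0 and no gene at an unadjusted p under 0.05. Their medians ran from -0.10 without TGFBRi rat 3 to 0.04 without TGFBRi rat 4 and from -0.05 without TGFBRi rat 2 to 0.20 without TGFBRi rat 4. The ribosomal protein genes RPS19, RPS23 and RPL13 had log2 differences of -0.28 ± 0.23, -0.22 ± 0.19 and 0.06 ± 0.17. The ATP synthase subunit gene ATP5F1B had 0.23 ± 0.14 and the cytochrome c1 gene CYC1 -0.18 ± 0.12, again as log2 differences.

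Genes that mark cells outside the CD45+ gate were counted in both groups, some of which leukocytes also express. Luminal epithelial markers summed to 7181 to 15014 in TGFBRi rats and 4579.6 to 9516 in vehicle rats, with a median difference of 0.69, which ran from 0.46 without TGFBRi rat 3 to 0.93 without TGFBRi rat 4. Of 22 markers 4 were higher at an unadjusted p under 0.05, and 5 markers, ESR1, PGR and PRLR among them, were at 0 in at least 1 rat. The 3 most abundant luminal markers were SPINT2, a protease inhibitor, CLDN4, a tight junction claudin, and the keratin KRT8. Their log2 differences were 0.50 ± 0.26, 0.65 ± 0.53 and 0.97 ± 0.52. Genes of milk and milk fat summed to 23485 to 43676 in TGFBRi rats and 17472 to 44629 in vehicle rats (median 0.65, and 0.22 with part 2 alone), led by CSN2, a casein, at 15008, 18479, 9547 and 5157 against 4226, 17307, 12583 and 6058. Of 20 measured, 3 were higher at an unadjusted p under 0.05. PLIN2, a lipid droplet protein, and MFGE8, a protein of the milk fat globule, both also made in macrophages, had log2 differences of 0.65 ± 0.46 and 0.78 ± 0.34. Basal epithelial markers summed to 197 to 3277 in TGFBRi rats and 329 to 1023 in vehicle rats. Their median was -0.34, which ran from -1.09 without TGFBRi rat 3 to 0.31 without TGFBRi rat 4, with 6 genes higher and 10 lower, and was 0.37 with edgeR and 0.38 with DESeq2. At an unadjusted p under 0.05, 2 were higher (TP63 and CDH3), 1 of them without overlap, and none was lower. Of the 16 markers 8, including KRT5 and TP63, were at 0 in at least 1 rat. TGFBRi rat 3 held the highest value of the defining basal keratin KRT14, at 41.2, 12.7, 751 and 24.7 against 15.7, 146, 34.9 and 36.8.

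Fibroblast and matrix genes summed to 3403 to 8228 in TGFBRi rats and 2068 to 5353 in vehicle rats (median 0.69). That median ran from 0.32 without TGFBRi rat 3 to 1.26 without TGFBRi rat 4. At an unadjusted p under 0.05, 4 of 24 genes were higher (COL5A1, FN1, SPARC and POSTN), beside 3.9% of all genes. Of the list 2 genes were higher without overlap, beside 1.46% of all genes. DPP4, which lymphocytes also make, had a log2 difference of 0.60 ± 0.31. Of 24 genes 14, with PDGFRA, PDGFRB and LUM among them, were at 0 in at least 1 rat. Endothelial genes summed to 3485 to 5364 in TGFBRi rats and 3949.6 to 4955 in vehicle rats (median 0.41), and that median ran from 0.28 without vehicle rat 4 to 0.80 without vehicle rat 2 and was -0.20 with part 1 alone. Among them PECAM1, which leukocytes also make, had 1857, 2459.6, 766 and 1098 against 3079.8, 1388, 2472 and 3785. TIE1, an endothelial receptor kinase, had a log2 difference of 0.41 ± 0.45, and 2 of 17 genes were higher at an unadjusted p under 0.05 (KDR and FLT1). Adipocyte genes summed to 1139 to 2697 in TGFBRi rats and 725 to 1784 in vehicle rats (median 0.62, and 0.18 with DESeq2), with ADIPOQ and PLIN1 at 0 in at least 1 rat. The lipid carrier FABP4 and the complement protease CFD had log2 differences of 0.70 ± 0.39 and 1.70 ± 0.86. The 7 measured erythroid and platelet genes summed to 572 to 2139.8 in TGFBRi rats and 219 to 643 in vehicle rats (median 0.42). That median ran from 0.27 without vehicle rat 2 to 0.57 without TGFBRi rat 2, and was 0.08 with a pseudocount of 10 and 0.78 over genes with a mean of at least 10. The integrin ITGB3, the platelet chemokine PF4 and the erythroid factor KLF1 had log2 differences of 0.94 ± 0.49, 1.84 ± 0.71 and 0.63 ± 0.65, with PF4 at an unadjusted p under 0.05. The medians of the luminal epithelial, milk, fibroblast, endothelial and adipocyte lists were above 0, as were those of the macrophage and inflammatory lists, with the exception of the endothelial list with part 1 alone. The median of the basal epithelial list was below 0 in limma and above 0 with edgeR and DESeq2. The part of these cell types in the macrophage and inflammatory results was not tested. Nor was their part in the genes called by DESeq2, EDN1 and EFS among them.

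The 4 libraries of TGFBRi rat 1 gave a direct view of the spread inside a rat. Over 9264 genes with a mean of at least 50, the median SD on the log2 scale was 0.272 among the 4 parts, 0.313 among TGFBRi rats and 0.297 among vehicle rats, so the parts differed nearly as much as rats did. For B cell genes the median SD was 2.75 among the 4 parts, 1.96 among TGFBRi rats and 0.636 among vehicle rats, and for macrophage genes 1.1 among the 4 parts, 0.953 among TGFBRi rats and 1.32 among vehicle rats. T cell genes, in contrast, had 0.251 among the 4 parts, 0.347 among TGFBRi rats and 0.241 among vehicle rats. Correlations across those genes, which share libraries and are no replicates, ran from 0.921 to 0.981 between parts of the rat, from 0.915 to 0.962 between TGFBRi rats, from 0.940 to 0.969 between vehicle rats and from 0.887 to 0.978 between rats of different groups.

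**Figure D4:**
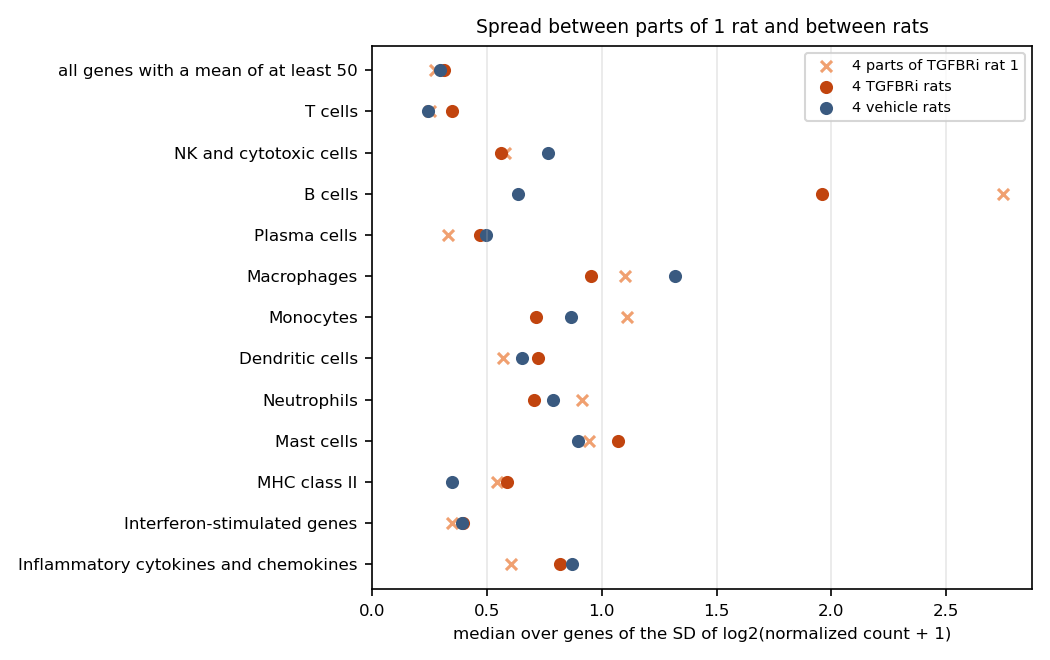
Median over the genes of a list of the SD of log2(normalized count + 1) (horizontal axis, log2 units) between the 4 parts of TGFBRi rat 1 (crosses), the 4 TGFBRi rats (red) and the 4 vehicle rats (blue). B cell genes vary most between the parts, with an SD of 2.75 against 0.272 for all genes with a mean of at least 50. Macrophage genes vary by 1.1 between parts, beside 0.953 among TGFBRi rats and 1.32 among vehicle rats. Monocyte genes vary more between parts (1.11) than among TGFBRi rats (0.714) or vehicle rats (0.864).

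The same experiment held 2 rats that were treated with TGFBRi and bore tumors under E2, and 7 rats without E2, 4 given vehicle and 3 given TGFBRi, all of them tumor-free. EDN1 had 141 and 114 in the tumor-bearing TGFBRi rats, 80.4, 182, 225 and 171 in the vehicle rats without E2 and 154, 196 and 158 in the TGFBRi rats without E2. IGSF3 had 8.81 and 44.3 in the tumor-bearing TGFBRi rats. Without E2 it had 144, 165, 63.15 and 117 in vehicle rats and 96.6, 138 and 112 in TGFBRi rats. EFS had 0 in both tumor-bearing TGFBRi rats. Without E2 it had 7.5, 19.4, 19.3 and 43 in vehicle rats and 13.5, 33.4 and 57.1 in TGFBRi rats. In IGSF3 and EFS every rat without E2 lay above every vehicle rat with E2. MMP13 had 96.9 and 168 in the tumor-bearing TGFBRi rats, below every tumor-free TGFBRi rat. Against those 2 rats, limma called 9 genes, or 0.0668%, all higher in tumor-free TGFBRi rats: CDCP1, EFS, IL17F, IRX2, ITGB4, KRT19, MAB21L3, MMP13 and PRSS32. A fit of those groups only called 0. The tumor-free TGFBRi rats are the same as in the results above. MMP13 was higher by 2.42 ± 0.39 on the log2 scale (limma adjusted p = 0.0208) and IL17F by 4.13 ± 0.55 (limma adjusted p = 0.00439). IL17F had 19.1 and 30.9 in the tumor-bearing TGFBRi rats, while KRT19 and ITGB4 are epithelial genes. In that comparison the luminal epithelial list had a median log2 difference of 1.42, and 12 of its 22 genes were higher and none lower at an unadjusted p under 0.05, beside 8.02% of all genes higher. The part of epithelial RNA in these calls was not tested. edgeR called none, with 1621 genes, or 12%, at an unadjusted p under 0.05, and DESeq2 called 61, or 0.452%. Limma called 4, 5 and 4 genes without tumor-free TGFBRi rats 1, 2 and 3.

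The tumor-bearing TGFBRi rats differed from each other. Rat 1 had a neutrophil list level of 9.52, above the 6.06 or less of the other 16 rats, and S100A9 at 77148 and 703 in the 2 rats. With only tumor-bearing TGFBRi rat 1 in that group, limma called 1634 genes between it and the tumor-free TGFBRi rats. Against vehicle tumor-bearing rats, which the comparison above also uses, the tumor-bearing TGFBRi rats gave 3 calls by limma, or 0.0223%: IRX2 and ITGB4 were lower and MYMK, at 17.6 and 9.28 against 0 in all 4 vehicle rats, was higher. edgeR called none, with 1061 genes, or 7.87%, at an unadjusted p under 0.05, and DESeq2 called 21, or 0.156%. Limma called 1773 genes without tumor-bearing TGFBRi rat 2 and 0 or 1 without any of the other rats compared. Median log2 differences of tumor-bearing TGFBRi rats from vehicle were 0.09 for the inflammatory list, 1.07 for macrophages and -0.46 for B cells. They were 1.04, 1.42 and -1.36 for tumor-free TGFBRi rats, and the 2 comparisons share the vehicle rats. The 2 tumor-bearing TGFBRi rats lay on opposite sides of the vehicle mean in each list. Their levels were 8.44 and 7.54 for the inflammatory list, 9.59 and 7.32 for macrophages and 8.91 and 10.99 for B cells. The vehicle means of these levels were 7.97, 7.51 and 10.45.

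Without E2, TGFBRi and vehicle rats were not separated by limma, edgeR or DESeq2 in any gene (0% called), with 330 genes, or 2.45%, at an unadjusted p under 0.05 in limma, 363 (2.69%) in edgeR and 377 (2.8%) in DESeq2. Medians there were -0.28 for inflammatory genes, -0.60 for macrophages and 0.10 for B cells. Vehicle rat 4 without E2 had the highest level of the first 2 of these lists in its group. Levels of vehicle rats 1 to 4 without E2 were 7.74, 7.90, 7.91 and 8.39 for inflammatory genes. They were 7.74, 7.53, 8.53 and 9.21 for macrophages. A test of the difference between the effect with E2 and the effect without E2 called 0% by all 3 tools, with 680 genes, or 5.04%, at an unadjusted p under 0.05 in limma, 780 (5.79%) in edgeR and 849 (6.3%) in DESeq2. For EDN1 that difference was 1.85 ± 0.58 on the log2 scale (limma adjusted p = 0.877), for MMP13 2.08 ± 0.46 (0.826) and for TLR7 2.64 ± 0.60 (0.826). The difference also carries tumor status, since the vehicle rats with E2 bore tumors and those without E2 did not. EDN1, MMP13 and TLR7 were taken from the genes that DESeq2 called between tumor-free TGFBRi and vehicle rats with E2. The difference uses those same rats, so its size in these genes is not independent of that choice.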

How the data were processed

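Per the labels and the study's methods, the authors sorted live CD45+ cells, made SMARTer low-input RNA-seq libraries, aligned single-end reads to rn6 with STAR 2.5.1b, counted them without regard to strand with HTSeq on UCSC refGene and scaled them with DESeq2 1.30.1, versions as in the submitters' processing notes. The deposited normalized signal is therefore reads per gene divided by a size factor; whole reads were recovered for 100% of 247783 values (tolerance 0.001). Without strand, overlapping and antisense genes cannot be told apart, and paralogs may share reads. Of 13631 genes, 13483 with summed values of at least 10 over the 17 rats were tested, after 3 entries for reads on no gene were removed from the tables. Parts of TGFBRi rat 1 were averaged, or summed as reads.

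The tests were limma 3.58.1 (trend, robust) on log2(value + 1) with Benjamini-Hochberg adjustment and a threshold of 0.05, edgeR 4.0.16 and DESeq2 1.42.0 on recovered reads in R 4.3.3, and exact permutation tests in scipy 1.17.1. Fold changes on the log2(value + 1) scale can understate the change of low genes. Where single rats are at 0 they can also differ in size and sign from the count-based tools. CPA3, for example, was at -2.09 in limma, 0.995 in edgeR and 0.977 in DESeq2. Replicates are separate rats, but nothing says that they were collected or sorted together. The fitting steps were tested on simulated data. Alternatives were another scaling, pseudocounts of 0.5 and 10, other filters, only the groups compared, each part alone and each rat left out.

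Genes were named by rule: the 10 with the smallest p in each direction among genes without overlap and with a mean of at least 50 over the 8 rats, every gene called by any tool, and from each list the 2 with the smallest p and the most abundant (the 3 most abundant for other cell types), and CD163; 1 gene that this rule names is not reported here. The comparison, the members and the 35 gene lists were chosen with earlier results of these data known. Single-cell files and other experiments of the series were not used here.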

Additional observations from a re-analysis of the deposited data

Results flagged for a closer look

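Of 302 groups of 4 rats examined, 20 held a rat that stood apart from the other 3 by Dixon's ratio, where chance gives about 1 in 20 groups. That rate holds for independent, normally distributed values. The groups here share the same rats and hold genes chosen by rule, so it is only a rough guide. In TGFBRi rats, rat 3 was high in SPN (6233), CLEC10A (3087), IL1R2 (2615), IER3 (7682), CEBPD (800.1) and ITGB2 (14121), and low in FASTKD1 (258) and CKS2 (7995). The same rat was high in the level of the regulatory T cell and checkpoint list (9.76) and of the adipocyte list (5.03). TGFBRi rat 2 was high in RT1-DOB (3624) and low in RGS1 (54499), JUND (287058), HSPA5 (98969) and the level of the tissue residency list (11.9). TGFBRi rat 4 was low in MMP13 (369.9). In vehicle rats, rat 2 was high in RTP3 (231) and CEBPD (486), rat 1 was low in CPA3 (8.84) and rat 3 was low in NFKBIZ (10768). Vehicle rat 2 and TGFBRi rat 3 were also the rats whose removal moved the count of genes at an unadjusted p under 0.05 from 845 to 1448 and to 413.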

How the results depend on the processing

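No paired analysis was possible because the groups hold different rats, numbered in the order of their records. The count of genes called in the main comparison was 0 by edgeR, fitted once, and 0 by limma under every planned setting except a pseudocount of 10, which gave 1 gene (PRSS32), and the fits with each rat left out, which gave 0 to 7 genes, the 7 without vehicle rat 2; DESeq2 gave 8. With part 1, 2, 3 or 4 alone DESeq2 gave 17, 14, 4 and 3 genes, and 0 to 251 with each rat left out, 251 without vehicle rat 2 (fits added after seeing the data; limma on parts 1 and 2, or 3 and 4, called none). Tumor-free against tumor-bearing TGFBRi rats gave 9 calls, 0 in a fit of those groups only, 0 by edgeR, 61 by DESeq2 and 4 to 1634 with each rat left out; tumor-bearing TGFBRi against vehicle rats gave 3 calls, 0 in the groups only, 0 by edgeR, 21 by DESeq2 and 0 to 1773. Where a rat was left out of the group of 2, the lone rat was assumed to vary like the other groups. The test of the difference with and without E2 gave 0 to 1 call with each rat left out. The cause of these changes was not tested. Log2 differences that changed sign were those of CPA3 (0.995 in edgeR, 0.977 in DESeq2), KRT17 (0.28 and 0.30), KRT15 (1.67 and 1.69), DCN (0.14 and 0.15, 0.052 with part 1, 0.039 with part 3), CD74 (0.015 and 0.0085, 0.047 with part 3, 0.000904 with part 4), KIT (-0.013 with part 3), CSN2 (-0.25 with part 2), KRT14 (-0.057 with part 1, -0.68 with part 2), SCD (-0.23 with part 1, -0.062 with part 2) and CD163 (-0.075 with part 4). With each rat left out, sign changes left ranges of -0.18 to 0.57 for KIT, -0.23 to 0.21 for CD74, -0.023 to 0.36 for JUNB, -1.40 to 0.034 for HSPB1, -0.025 to 0.28 for PCNA, -0.079 to 0.22 for CKS2, -0.021 to 0.68 for CSN2, -0.80 to 1.13 for KRT14, -2.38 to 0.63 for KRT15, -0.97 to 1.22 for DCN, -0.015 to 0.89 for PLVAP and -0.053 to 0.43 for SCD. Of 35 list medians, 24 kept their sign under all 20 alternatives, and 11 changed it under at least 1 (regulatory T cells, plasma cells, mast cells, MHC class II, TGFβ targets, heat shock, G2/M, ribosomal proteins, respiratory chain, basal epithelium and endothelium). Every library had at least 19263581 reads on genes, and the part of depth or of the spread between rats in the number of calls was not tested.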

Other observations

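PRSS32, a serine protease, had the smallest limma p of all genes but lay below the level that the naming rule asked for, and is given here after its values were seen. Its normalized counts were 17.7, 9.51, 8.23 and 15 in TGFBRi rats and 0, 2.45, 0 and 0 in vehicle rats, with a log2 difference of 3.26 ± 0.52 (limma adjusted p = 0.111, edgeR adjusted p = 0.803, DESeq2 adjusted p = 0.699), and was at 0 in both tumor-bearing TGFBRi rats. Without vehicle rat 2 limma called PRSS32 with EFS, HFE, PPP1R3B, PVR, RND3 and RTP3.

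Chosen after their values were seen, gene lists that were lower in parts 1 and 2 than in parts 3 and 4 of TGFBRi rat 1 were B cells, at 5.34, 5.70, 10.4 and 10.6, and milk and milk fat, at 7.75, 7.10, 8.97 and 8.83, while NK and cytotoxic genes (11.6, 11.5, 10.8 and 10.5), neutrophils (5.93, 5.88, 4.65 and 4.63) and mast cells (6.55, 6.75, 4.92 and 4.16) were higher in parts 1 and 2. PECAM1 had 250.5, 358, 3459.6 and 3359.8 and CXCR4 19726, 19069.5, 39273 and 35986 in parts 1 to 4. Whether the parts were pieces of tissue, glands or sorts was not stated in the sources used here.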
